A study of Mus musculus with 12 samples.

Results

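The genes described here are 9 transcription regulators that MLL fusion proteins are known to keep active in leukaemia: the homeobox genes Hoxa5, Hoxa7, Hoxa9 and Hoxa10, their partners Meis1 and Pbx3, and Mef2c, Myb and Eya1. They were chosen by gene symbol and are 9 of the 24454 genes in the deposited table. All 9 passed the filter on low values and were among the 11476 genes tested. They were measured in blasts of a mouse AML model. Fetal liver cells of wildtype (WT) or STAT3β-deficient (Δβ) mice, which lack the truncated isoform of STAT3, were transduced with a retrovirus that carries MLL-AF9 and the fluorescent reporter Venus, and were injected into the tail vein of young male NSG mice (NOD.Cg-Prkdc scid Il2rg tm1Wjl/SzJ). These hosts lack T, B and NK cells but keep their own myeloid and stromal cells. Venus+ blasts were sorted from the spleen (SP) and bone marrow (BM) of diseased animals, and RNA was sequenced in 3 libraries each of WT SP, Δβ SP, WT BM and Δβ BM. All 4 groups carry MLL-AF9, so no library shows these genes without the fusion protein. Whether the replicates stem from separate transductions, or whether the SP and BM libraries of 1 number come from 1 mouse, is not stated, and p-values then measure only the spread between these samples.

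MLL-AF9 joins the DNA-binding part of the histone methyltransferase MLL to AF9, which recruits factors of transcription elongation to the genes that MLL binds. The HOXA genes and Meis1 are its best known targets in myeloid cells, where they are normally active in stem and progenitor cells and silenced as the cells mature. HOX proteins bind DNA together with PBX and MEIS proteins, and their forced expression keeps progenitors growing.

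The 4 HOXA members lie within 1 cluster on the minus strand of chromosome 6 of GRCm38 (GENCODE M21), Hoxa5 at chr6:52201754-52204587, Hoxa7 at chr6:52214491-52221854, Hoxa9 at chr6:52223100-52231089 and Hoxa10 at chr6:52231197-52240854. RefSeq promoter windows (build GRCm38.p6), from 250 bases before to 50 bases after a gene's start, were given for 7 of the 9 members, all except Pbx3 and Eya1. The 250 bases upstream of the starts of Hoxa5, Hoxa9 and Hoxa10 are shown because the levels of these 3 genes varied together from library to library, as described below. Each is written 5′ to 3′ on the minus strand, with CpG dinucleotides, the sites of DNA methylation, in capitals. They cover chr6:52204588-52204837 for Hoxa5, chr6:52227371-52227620 for the RefSeq start of Hoxa9, which lies inside the gene as GENCODE bounds it, chr6:52240855-52241104 for the distal start of Hoxa10 and chr6:52234940-52235189 for its internal start.
Hoxa5: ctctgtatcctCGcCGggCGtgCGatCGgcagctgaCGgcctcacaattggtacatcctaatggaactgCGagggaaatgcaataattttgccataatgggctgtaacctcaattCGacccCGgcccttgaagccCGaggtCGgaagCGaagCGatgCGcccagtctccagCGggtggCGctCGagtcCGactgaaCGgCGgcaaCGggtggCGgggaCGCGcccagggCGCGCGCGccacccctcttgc
Hoxa9: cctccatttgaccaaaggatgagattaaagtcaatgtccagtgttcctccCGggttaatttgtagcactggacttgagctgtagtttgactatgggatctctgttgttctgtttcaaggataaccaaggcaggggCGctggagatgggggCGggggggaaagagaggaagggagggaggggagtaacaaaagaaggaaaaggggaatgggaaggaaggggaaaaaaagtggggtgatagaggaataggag
Hoxa10 distal: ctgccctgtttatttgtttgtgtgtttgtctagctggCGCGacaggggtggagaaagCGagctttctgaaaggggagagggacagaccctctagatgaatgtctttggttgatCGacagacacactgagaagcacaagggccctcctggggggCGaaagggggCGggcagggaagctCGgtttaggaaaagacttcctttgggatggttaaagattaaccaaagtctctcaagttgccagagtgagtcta
Hoxa10 internal: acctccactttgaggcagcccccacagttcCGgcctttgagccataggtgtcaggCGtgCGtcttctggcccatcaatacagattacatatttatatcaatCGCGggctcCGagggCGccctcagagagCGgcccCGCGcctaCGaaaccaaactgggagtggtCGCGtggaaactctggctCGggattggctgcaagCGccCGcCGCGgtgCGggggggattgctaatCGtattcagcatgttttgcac

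The 3 genes did not share a CpG content in these stretches. The Hoxa5 stretch held 28 CpG and was 63.6% G and C, whereas the Hoxa9 stretch, at its internal start, held 3 CpG at 49.6%. The Hoxa10 stretches held 7 at the distal and 20 at the internal start. Over the whole windows of 300 bases, Hoxa5 held 29 CpG, more than 87.1% of all 32851 mouse windows, and Hoxa9 held 4, against a median of 7 over all windows. Hoxa7, whose window also lies inside the gene, held 9, Meis1 15 and Myb 40. A composite HOX-PBX motif (TGATTTAT) and a MEIS motif (TGACAG), searched on both strands, were found in none of the member windows and in 0.977% and 19.2% of all windows. The MYB motif AACGG was found in the Hoxa5 window only, at 2 places, and in 17.4% of all windows. DNA methylation and factor binding were not measured here.

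All 9 genes were above a floor of 3 reads in every Δβ library, and all except Eya1 in every WT library as well. Levels are normalized counts, the reads of a gene divided by a size factor of the library. Divided by transcript length, the mean over the 12 libraries was highest for Myb at 2571 normalized counts per kilobase, followed by Mef2c at 1177, Hoxa9 at 695, Pbx3 at 418, Meis1 at 378, Hoxa5 at 264, Hoxa10 at 257, Hoxa7 at 177 and Eya1 at 112. The ranges over libraries of all neighbours in this order overlapped. Within single libraries, Myb exceeded Mef2c in 11 of 12, Mef2c exceeded Hoxa9 in 10 of 12 and Hoxa9 exceeded Pbx3 in 9 of 12, whereas Pbx3 against Meis1 and Hoxa5 against Hoxa10 had this order in 6 of 12 each. Levels from here on are not divided by length and are compared only within a gene. Differences are on the scale of log2(normalized count + 1), and a gene is called where its Benjamini-Hochberg adjusted p from limma, over all genes tested, is under 0.05.

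**Figure D1:**
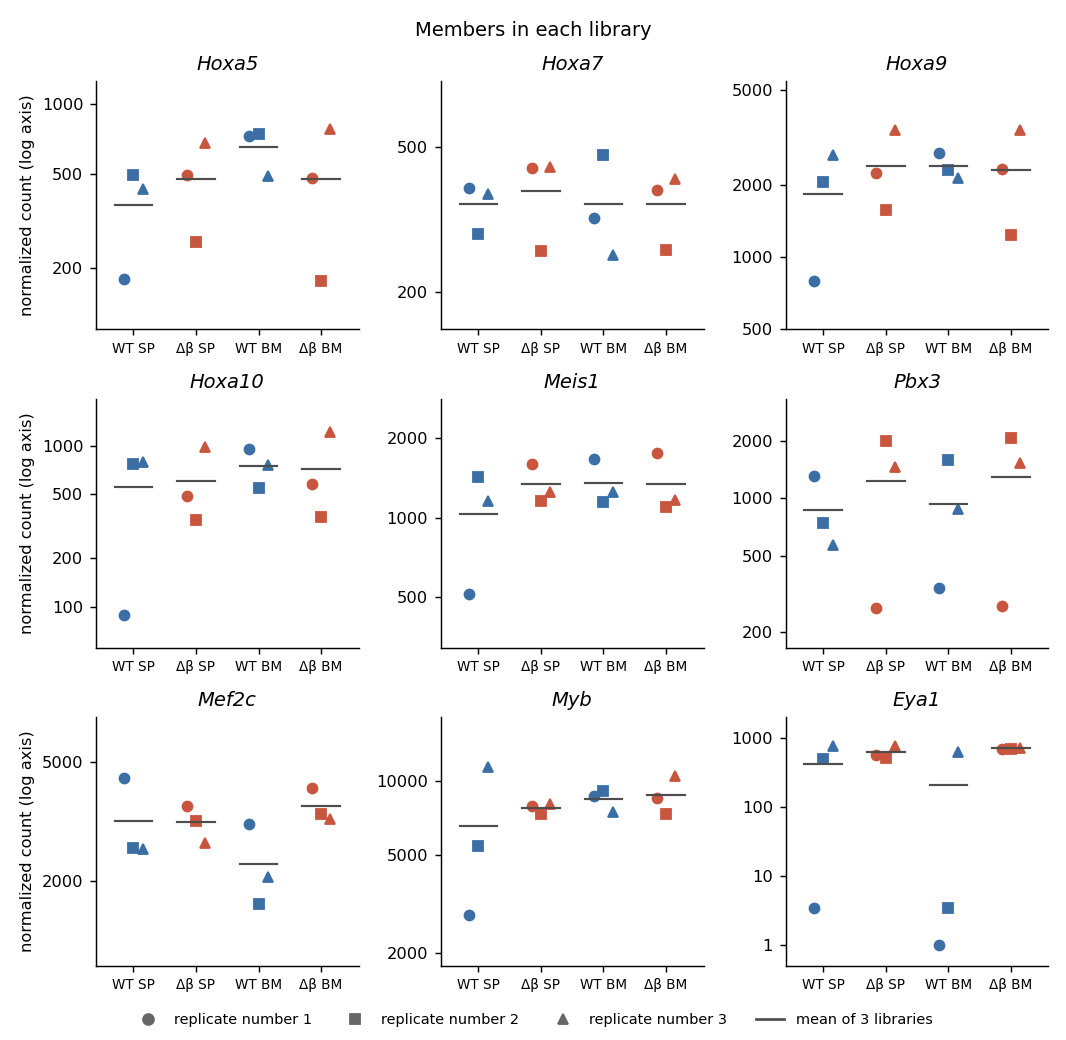
Normalized counts of the 9 members (log axis, with its own range in each panel) in the 12 libraries. Blue marks WT and red Δβ libraries, the symbol gives the replicate number and the bar the mean of 3 libraries. WT SP replicate 1 is the lowest library for Hoxa9, Hoxa10, Meis1 and Myb, and Eya1 is below 4 normalized counts in 3 WT libraries and above 490 in the other 9.

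Hoxa9, the homeobox factor most closely tied to leukaemia, measured 798, 2060.3 and 2671 normalized counts in replicates 1 to 3 of WT SP against 2241, 1576 and 3409.9 for Δβ SP (values are given in this replicate order throughout). The BM libraries gave 2735, 2311 and 2150.1 for WT and 2335, 1237 and 3401 for Δβ. WT and Δβ overlapped in both organs, and the lowest value was that of WT SP replicate 1. Hoxa9 was 0.48 higher in Δβ SP on the log2 scale (standard error, SE, 0.47; limma adjusted p = 0.606) and differed by -0.16 (SE 0.47, limma adjusted p = 1.0) in BM. The 95% confidence intervals, from -0.54 to 1.51 in SP and from -1.18 to 0.87 in BM, include 0 and reach beyond 1 log2 unit.

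Hoxa10, its neighbour in the cluster, spanned the widest range of the HOXA members, 13.7-fold between the lowest and the highest library. SP libraries held 88.9, 773 and 799 normalized counts for WT and 489.8, 344 and 988 in Δβ SP. In BM the values were 960.5, 543 and 759 in WT and 577, 361 and 1222 in Δβ. Apart from 88.9 in WT SP replicate 1, the WT values lay within those of Δβ. The log2 difference of Δβ from WT was 0.53 (SE 0.77, limma adjusted p = 0.742) in SP and -0.21 (SE 0.77, limma adjusted p = 1.0) in BM.

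Hoxa5, a homeobox factor also linked to myeloid differentiation, had 180.1, 498 and 432 normalized counts in WT SP and 496, 258 and 682 in Δβ SP. BM libraries held 725, 739 and 493 in WT and 482, 175 and 779 in Δβ. The lowest values were those of Δβ BM replicate 2 and WT SP replicate 1. Its difference was 0.39 (SE 0.55) in SP and -0.67 (SE 0.55) in BM, and the difference between these, 1.06 on the log2 scale, was not called (SE 0.78, limma adjusted p = 0.926). Without Δβ BM replicate 2 the BM value was -0.07 and the difference between organs 0.46.

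Hoxa7 was the steadiest of the 9 genes, with 1.88-fold between its lowest and highest library. Its levels were 386, 287 and 371 normalized counts for WT SP, 436, 259 and 441 in Δβ SP, 319, 474 and 252 in WT BM, and 381, 260.5 and 407 in Δβ BM. Its log2 differences of 0.09 in SP and 0.03 in BM (SE 0.28 in both) were the smallest of the HOXA members. It shares 586 exonic bases with the antisense gene Hoxaas3, which had 9.34 to 76.6 normalized counts. Whether the counting used strand is not given in the sources used here, so reads of this pair cannot be told apart.

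**Figure D2:**
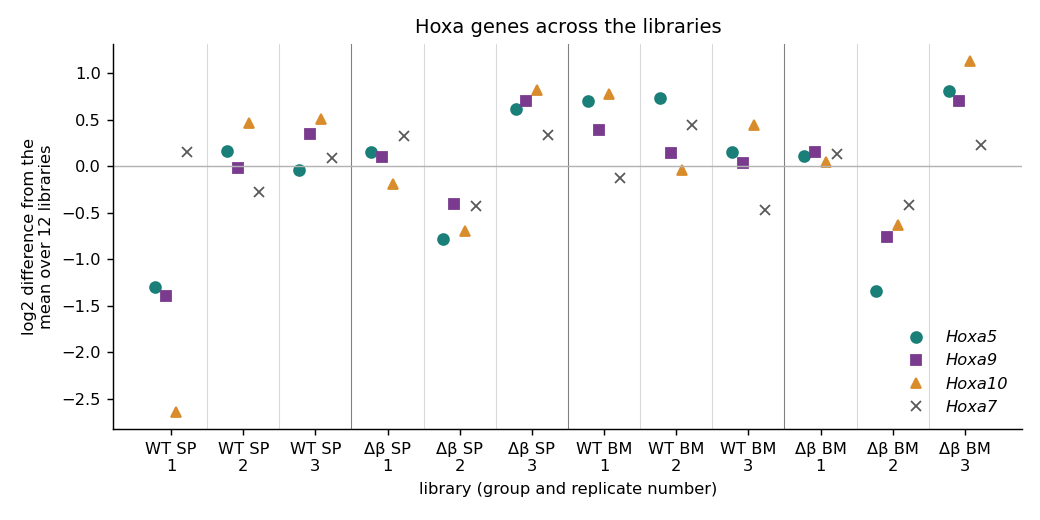
Log2 difference of each HOXA member from its own mean over the 12 libraries, by library (group and replicate number). Hoxa5, Hoxa9 and Hoxa10 all lie at least 1.2 below their means in WT SP replicate 1 and at least 0.6 above them in both Δβ replicate 3 libraries, and Hoxa7 stays within 0.5 of its mean throughout.

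Across the 12 libraries, Pearson's r on the log2 scale was 0.94 between Hoxa9 and Hoxa10, 0.91 between Hoxa9 and Hoxa5 and 0.82 between Hoxa5 and Hoxa10. These are descriptions over libraries that share groups and, in Δβ, the SP and BM numbers. Hoxa7, which lies between Hoxa5 and Hoxa9, had r of 0.47 with Hoxa5, 0.35 with Hoxa9 and 0.07 with Hoxa10. Without WT SP replicate 1, r was 0.88 for Hoxa9 with Hoxa10 and 0.89 with Hoxa5. For Hoxa7, r was then 0.66 with Hoxa5, 0.67 with Hoxa9 and 0.33 with Hoxa10. In that library Hoxa7 had 386 normalized counts, above its median, while the other 3 were at or near their lowest.

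Of the other genes listed for the cluster, Hoxa2, Hoxa3, Hoxa4 and Hoxa6 passed the filter. None of the 4 was called in any of the comparisons. Like Hoxa5, Hoxa9 and Hoxa10, all 4 were highest in a Δβ replicate 3 library. Hoxa6 was lowest in WT SP replicate 1, and Hoxa2, Hoxa3 and Hoxa4 in Δβ BM replicate 2 (9.34, 65.4 and 5.84 normalized counts). Hoxa6, between Hoxa5 and Hoxa7, had 41.0, 107 and 91.3 normalized counts in WT SP and 163, 145 and 126 in WT BM, which did not overlap (log2 difference of SP from BM -0.95, SE 0.49, limma adjusted p = 0.622). All 4 were lower in WT SP than in WT BM, with a median log2 difference of -0.66 beside -8.10e-05 over all genes tested.

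Meis1, the TALE homeobox partner that speeds HOX-driven leukaemia, had 516, 1423 and 1152 normalized counts in WT SP and 1599, 1155 and 1257 in Δβ SP. BM levels were 1665, 1143 and 1255 in WT and 1757, 1103 and 1169 in Δβ. BM values of the genotypes ran through the same range, and in SP they overlapped with WT replicate 1 far below the rest. Meis1 was 0.48 higher in Δβ SP (SE 0.33, limma adjusted p = 0.481), the lowest adjusted p of the members in SP, and differed by -0.03 in BM (SE 0.33). Without WT SP replicate 1 the SP difference was 0.05 (SE 0.24, limma adjusted p = 0.972). Meis1 shares exonic bases with the antisense gene Gm16140, which is not a row of the table.

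Pbx3, a PBX partner often raised together with HOXA9 in AML, differed more between replicates than between groups. SP libraries held 1304, 746 and 570.3 normalized counts for WT and 267, 1980.4 and 1460.5 in Δβ SP. BM values were 339, 1585 and 881 in WT and 275, 2055 and 1527 in Δβ. Both Δβ replicates numbered 1, and WT BM replicate 1, lay below 340, while WT SP replicate 1 was among the high values. The log2 difference was 0.16 in SP and 0.29 in BM, with a SE of 0.89 in each. The libraries low in Pbx3 were the highest in Meis1, and r between both genes was -0.59 over the 12 libraries and -0.88 without WT SP replicate 1. Of the 9 other TALE genes listed, 6 were tested and none was called.

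Mef2c, a MADS-box factor of lymphoid and myeloid progenitors that MLL fusions raise, was 1 of 2 members whose genotypes separated in BM. Its BM levels were 3101, 1676 and 2068 normalized counts for WT and 4099.9, 3370.0 and 3229.7 for Δβ, so that every Δβ value exceeded every WT value. SP levels were 4419.5, 2588 and 2576 in WT and 3581, 3187 and 2686 in Δβ, and the highest value of all was that of WT SP replicate 1. The WT BM mean was 2282 ± 736 (SD, n = 3), that of Δβ BM 3567 ± 467 (SD, n = 3). Mef2c was 0.68 higher in Δβ BM on the log2 scale (SE 0.25, 95% confidence interval 0.12 to 1.25), with an unadjusted p of 0.0213 and a limma adjusted p = 1.0, so it was not called. Across the 20 alternative fits the difference stayed between 0.49 and 0.93 and the adjusted p between 0.422 and 1.0. Not all of these fits can move the difference, since leaving out an SP library does not change the BM means. In SP the difference was 0.02 (SE 0.25), and the difference between organs, -0.67 (SE 0.36, limma adjusted p = 0.926), was not called either. Of all genes tested, 3.5% were likewise higher in every Δβ BM library than in every WT BM library, and 2.59% had an unadjusted p under 0.05 in BM.

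Eya1, a phosphatase and transcriptional coactivator, was either near 0 or well expressed. Its BM levels were 0.992, 3.38 and 620.4 normalized counts for WT, and 696, 699.7 and 713 for Δβ. The SP levels were 3.42, 493 and 769 in WT and 570.4, 516 and 761 in Δβ. The 3 low values, WT SP replicate 1 and WT BM replicates 1 and 2, rest on at most 3 reads, the floor at or under which no level is read here. All 6 Δβ libraries and 3 of 6 WT libraries were above this floor. The low libraries did not all share a number or an organ, since WT SP replicate 2 had 493 normalized counts and WT BM replicate 2 had 3.38. Eya1 was the other member without overlap in BM, with a log2 difference of 5.32 (SE 2.14, unadjusted p = 0.0302, limma adjusted p = 1.0). This size depends on the treatment of the near-zero values, being 5.64 with a pseudocount of 0.25, 4.64 with one of 4 and 1.76 in edgeR, and no call was made in any fit. Exact permutation of 3 against 3 libraries cannot give a two-sided p under 0.10 for either gene.

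Eya3, the broadly expressed EYA gene, stayed between 699.9 and 832 normalized counts in all libraries, and Eya2 and Eya4 were under the filter. Of the 8 listed relatives of Mef2c, Myb and Eya1, 5 were tested and none was called. Mef2a had 3577, 1992 and 799 normalized counts in WT SP and 1225, 758 and 1116 in Δβ SP (log2 difference -0.82, SE 0.44, limma adjusted p = 0.390).

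Myb, a factor required for MLL-AF9 leukaemia and for immature haematopoietic cells, had 2842, 5439 and 11399.5 normalized counts in WT SP and 7943, 7342 and 8117 in Δβ SP. The BM values were 8715, 9134 and 7498 in WT and 8527, 7339 and 10544.5 in Δβ. The lowest and the highest value of all were both in WT SP, in replicates 1 and 3, and the other 3 groups spread less. The log2 difference of Δβ from WT was 0.48 in SP (SE 0.38, limma adjusted p = 0.532) and 0.05 in BM (SE 0.38). Without WT SP replicate 3, Myb was called, 0.99 higher in Δβ SP (limma adjusted p = 0.0267) and 1.10 lower in WT SP than in WT BM (log2 difference -1.10, limma adjusted p = 0.0364). That omission also raised the calls over all genes in SP from 12 to 1884, or 16.4% of those tested, and between WT organs from 0 to 598, or 5.21%. Myb shares exonic bases with the antisense gene Gm26577, which is not a row of the table.

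**Figure D3:**
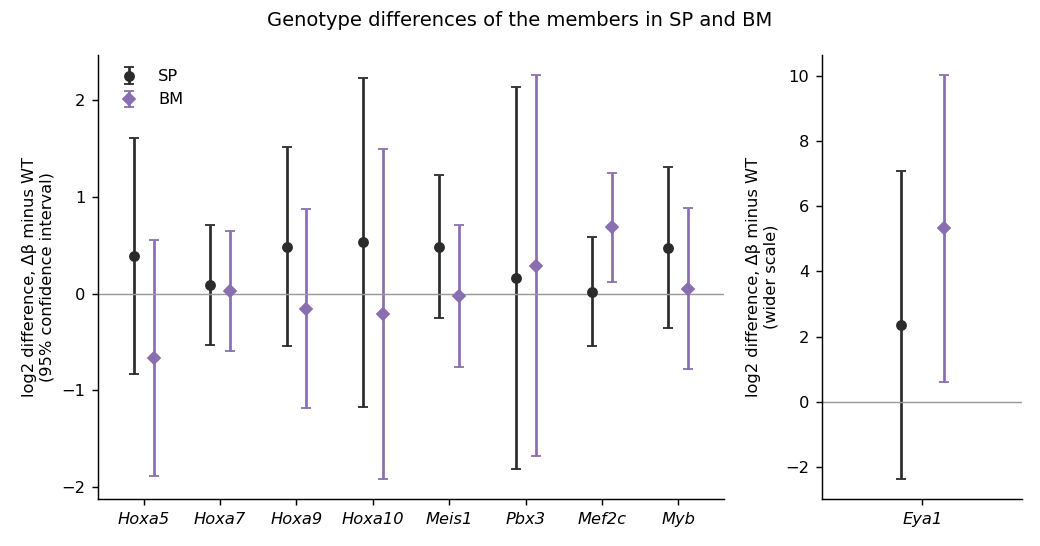
Log2 difference of Δβ from WT for each member in SP (circles) and BM (diamonds), with the 95% confidence interval from limma. Eya1 is drawn on a wider scale. All 9 SP values lie above 0, and the only intervals that exclude 0 are those of Mef2c and Eya1 in BM, which were not called after adjustment.

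Set side by side, no member passed an adjusted p of 0.05 in Δβ against WT in SP, where 0.105% of all genes did, or in BM, where 0.0697% did. Nor did any over both organs, where 0.148% of genes were called. The lowest adjusted p of a member was 0.481 in SP, 1.0 in BM and 0.521 over both organs. In SP all 9 had a positive difference, with a median of 0.48 beside -0.01 over all genes. In BM 5 of 9 were positive, with a median of 0.03 beside -0.02. No member was higher in every Δβ SP than in every WT SP library, beside 7.92% of genes, or lower in every one, beside 9.37%. In BM 2 members, Mef2c and Eya1, were higher in every Δβ than in every WT library, beside 3.5% of genes, and none was lower throughout, beside 4.13%. The SP direction rested on WT SP replicate 1, since without it 4 of 9 were positive and the median was -0.01. At most 2 of 9 members had an unadjusted p under 0.05 in limma in any comparison (both in BM, beside 2.59% of all genes), and 0 in SP beside 14.9%. On the recovered reads edgeR called 0 members in any comparison, with 0.0349%, 0.0697% and 0.139% of genes called in SP, in BM and over both organs. DESeq2 also called 0 members, with 3.98%, 0.322% and 3.68% of genes called, and 0.0261% for the difference of the genotype effect between organs. For that difference limma and edgeR called no gene (0%), with 367 genes (3.20%) and no member at an unadjusted p under 0.05 in limma.

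WT SP replicate 1 also stood apart in other ways. Its members deviated by a median of -1.30 log2 units from their means. It had the highest Itgam (26293 normalized counts, 7855 to 21981 elsewhere) and Ptprc (20833), and C1qa and C1qb, genes of mature macrophages, at 14.8 and 30.8 where no other library exceeded 4.27. Vcam1, another marker on the red pulp macrophage list, was instead lowest there at 699. The sum of that list was also lowest there at 756, but close to the 767 of Δβ SP replicate 3 (up to 5512 elsewhere). Rn45s, a precursor of ribosomal RNA, took 2.48% and 2.41% of reads in WT SP replicates 2 and 3 and 0.178% to 0.725% in all other libraries. Over the 16 myeloid maturation genes listed, all were tested, and their summed level ran from 278151 to 415012 in the WT SP libraries, with 162827 to 222761 for Δβ SP. The BM libraries summed to 201544 to 461706 (WT) and 167575 to 356379 (Δβ). None of them was called in any comparison, but without WT SP replicate 3 there were 6 called lower in Δβ SP and 1, Mpo, higher, in a fit that called 16.4% of all genes. Their part in the member values was not tested. In bulk RNA, fewer cells expressing a gene and less RNA of it per cell cannot be told apart. All 9 listed markers of myeloid blasts had at least 3 reads in every library. Their levels were not even, since 8 of 9 were lower in Δβ SP than in WT SP, with a median log2 difference of -0.67, and Mpo was higher. In limma 6 had an unadjusted p under 0.05, beside 14.9% of all genes, and none was called. Without WT SP replicate 3, 4 were called lower and Mpo higher, beside 16.4% of all genes. Markers of B, NK and erythroid cells each summed to at most 50.1 normalized counts in any library, those of stroma and endothelium to at most 50.6 and of megakaryocytes to at most 68.4. Of 6 red pulp macrophage markers Vcam1 alone passed the filter, with 2910.5 to 5511 normalized counts in WT BM and 699 to 2409 elsewhere. T cell markers summed to 91.5 and 255 in the Δβ replicate 1 libraries of SP and BM and to at most 21.4 elsewhere, and these are the libraries lowest in Pbx3. The part of these markers and of Rn45s in the member values was not tested either.

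Comparing organs within a genotype, no member was called in WT or Δβ, nor was any other gene (0% of 11476 in both, and 0 in edgeR). At an unadjusted p under 0.05 there were 949 genes (8.27%) in WT and 203 (1.77%) in Δβ, with no member in either. DESeq2 called 111 genes in WT (0.967%) and 2 in Δβ (0.0174%), and no member. In WT the median log2 difference of SP from BM was -0.50 over the members, and 4 of 9 were positive. This median also rested on WT SP replicate 1, without which it was -0.04 with 3 of 9 positive. The largest were Eya1 at 2.76 (SE 2.14), Hoxa10 at -0.95 (SE 0.77) and Hoxa5 at -0.92 (SE 0.55). Mef2c, at 0.48 (SE 0.25, unadjusted p = 0.0837, limma adjusted p = 0.625), had the opposite sign to Hoxa5, Hoxa9 and Hoxa10, and Hoxa7 differed by 0.04 (SE 0.28). No member separated SP from BM, in WT beside 5.66% of genes higher and 5.8% lower in every SP library, and in Δβ beside 2.92% and 4.51%. In Δβ the median was -0.05 and no member differed by more than 0.21. Within the Δβ numbers, 3 of 9 members were lower in SP in all 3 pairs, beside 18.7% of genes, and none was higher in all 3, beside 15.7%. The 3 were Hoxa10, by -0.24, -0.07 and -0.31 log2 units, Pbx3, by -0.04, -0.05 and -0.06, and Mef2c, by -0.19, -0.08 and -0.27.

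**Figure D4:**
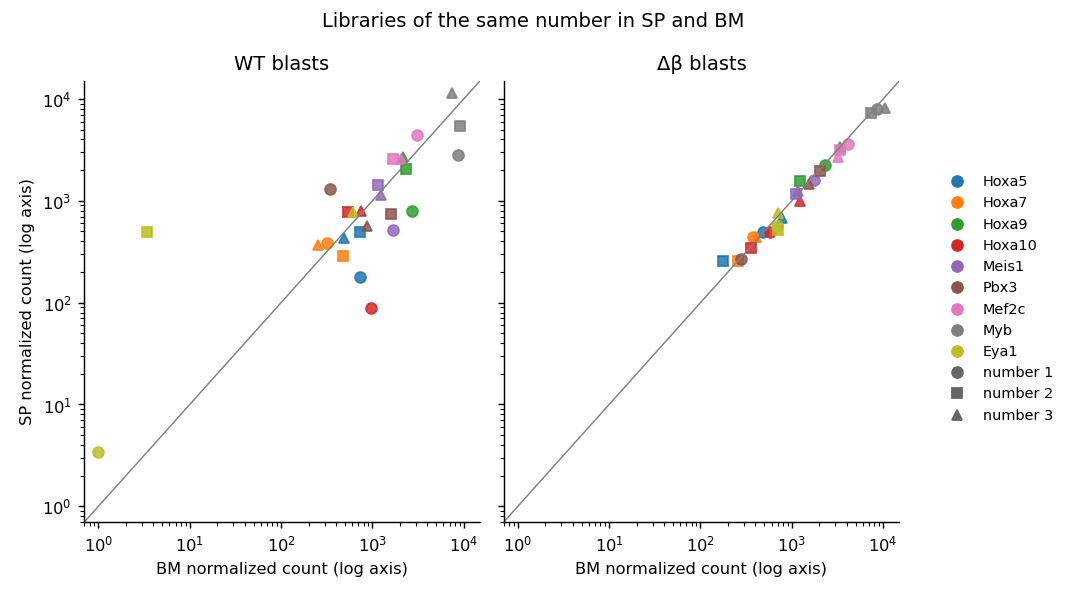
SP against BM normalized counts (both log axes) of libraries with the same replicate number, for WT (left) and Δβ blasts (right). Colour gives the gene, the symbol the number, and the line equal levels. Δβ points lie along the line within 0.55 log2 units. WT points scatter by up to 3.42 (Hoxa10 in replicate 1), leaving out the 2 Eya1 pairs that hold a value at or under the floor. In WT the numbers were not seen to pair the organs.

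The members differed little between SP and BM of a Δβ replicate number and far more between numbers. Pbx3 had 267 and 275 normalized counts in SP and BM of Δβ replicate 1, 1980.4 and 2055 in replicate 2 and 1460.5 and 1527 in replicate 3. Its organs differed by at most 1.05-fold within a number, while the numbers spanned 2.89 log2 units. Hoxa5 differed by at most 1.47-fold within a Δβ number, with 1.77 log2 units between numbers. In 7 of 9 members the range between Δβ numbers exceeded the largest difference between organs, the exceptions being Myb and Eya1, whose numbers differed by 0.33 and 0.29. The share of all genes with such a range was not computed. Same-numbered Δβ SP and BM libraries also deviated together over all genes tested (r of 0.608 to 0.664), so this is not a trait of the members alone. In WT the range between numbers exceeded the largest organ difference in 1, Mef2c, of the 8 members above the floor in all libraries. Same-numbered WT SP and BM libraries did not deviate together over all genes tested (r of -0.237 to -0.00936). A difference within a WT number therefore also holds the spread between samples. The median over the members of the largest organ difference within a number was 0.31 log2 units in Δβ and 1.73 over these 8 in WT. The WT value rested largely on number 1, which holds WT SP replicate 1. Hoxa5, Hoxa9, Hoxa10, Meis1, Pbx3 and Myb all had their largest WT difference there, from -1.62 (Myb) to -3.42 (Hoxa10) in size. Over WT numbers 2 and 3 their largest ran in size from 0.31 (Hoxa9) to -1.09 (Pbx3). A WT median without number 1 was not computed. Without a statement on which libraries share a mouse, the contrast between Δβ and WT is given as a description with no test.

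In the wider MLL fusion programme none of 10 tested genes of 14 listed was called in any comparison, and the same held for 11 tested of 12 downstream genes of Hoxa9, Meis1 and Myb and for 5 of 5 MLL complex partners. At an unadjusted p under 0.05 in limma there were 4 of the 10, 3 of the 11 and 0 of the 5 in SP, beside 14.9% of all genes. Over both organs there were 3, 3 and 0, beside 9.91%, and in BM 0 in each list, beside 2.59%. Sox4 is on both the programme and the downstream list. Mecom, a regulator of blood stem cells, had 3.42, 82.7 and 92.3 normalized counts in WT SP and 2.33, 1.12 and 3.20 in Δβ SP, which rest on at most 3 reads, so no fold is given (limma adjusted p = 0.226). In BM it did not exceed 8.06. Sox4, a progenitor factor, had 11.4, 49.8 and 25.4 in WT SP and 83.7, 48.2 and 74.7 in Δβ SP (log2 difference 1.42, SE 0.52, limma adjusted p = 0.275). Id2, an inhibitor of basic helix-loop-helix factors, had 4269, 2141 and 724 in WT SP and 443, 439 and 585 in Δβ SP, with every Δβ value lower (log2 difference -1.95, SE 0.50, limma adjusted p = 0.205). Without WT SP replicate 3, Id2 and Mef2a were called lower and Lmo2 and Gfi1 higher in Δβ SP. These are 1 of 5 relatives (Mef2a), 1 of 10 programme genes (Lmo2) and 2 of 11 downstream genes tested, beside 16.4% of all genes in that fit. Without WT SP replicate 1, Mecom was called lower, beside 0.0784% of all genes. Kmt2a, which encodes MLL, had 2236, 2906 and 2383 in WT SP and 3619, 4297 and 3576 in WT BM (log2 difference of SP from BM -0.61, SE 0.24, limma adjusted p = 0.598).

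By Pearson's r over the 12 libraries on the log2 scale, the non-member genes most like Hoxa9 were Fam221a (0.95), Traip (0.95) and Pcbp3 (0.94). Those most like Meis1 were Rbl1 (0.94), Cdon (0.93) and Csrp2 (0.92), and those most like Mef2c were Surf1 (0.90), Arhgap22 (0.83) and Rnasek (0.82). For Myb they were Ift80, Hnrnph1 and Bace1 (0.97 each). Without WT SP replicate 1 the values for Meis1 went down to 0.73, 0.71 and 0.62, whereas those for Hoxa9 and Myb stayed between 0.88 and 0.91. These genes are the extremes of 11476, and the libraries share groups and numbers.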

How the data were processed

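Poly-A enriched RNA of sorted blasts was sequenced in 12 libraries, assigned to groups from the genotype and organ of each title. The authors deposited 1 signal value per gene and library, a read count divided by a size factor of the library. All values (100%) were whole multiples of the value of 1 read, within 0.01, and reads were recovered by this division (9001051 to 13859727 reads on genes). The floor of 3 reads covers counting error only, whereas the confidence intervals come from limma's estimate of the spread between libraries. The submitters' processing notes name FastQC, STAR, featureCounts, DESeq2, GRCm38 and mm10. Settings and strand are not given in the sources used here. Another 6 value columns with no sample label were not used.

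Log2(normalized count + 1) was, for the 11476 genes averaging 10 or more, fitted with limma 3.58.1 (R 4.3.3, 4 group means, eBayes with trend), with Benjamini-Hochberg adjustment over all tested genes at 0.05. Fold changes on this scale understate changes of low genes. Over both organs, SP and BM libraries of 1 number were averaged and 3 compared with 3. Deviations of same-numbered Δβ SP and BM libraries from their group means correlated with r of 0.608 to 0.664 across genes, so these numbers were taken to pair the organs in Δβ. The main organ comparisons, fitted on 4 group means, did not use this pairing. Among the alternatives, the replicate block of genotype and number did. Other same-numbered libraries did not pair (-0.237 to 0.202). The spread of the WT averages over both organs therefore depends on a numbering that was not seen to pair the organs. All 9 members were named in each comparison. Of other lists, genes past the threshold were to be named, otherwise from the 2 with the largest log2 difference. Alternatives were pseudocounts of 0.25 and 4, no filter, TMM rescaling, edgeR 4.0.16 and DESeq2 1.42.0 on recovered reads, a replicate block, fits of 1 organ or genotype, 12 separate libraries and leaving out each library. The fits were tested on simulated data. The members and gene lists were chosen with earlier results of these data known. Transcript lengths and overlaps come from GENCODE M21. Hoxaas3, Eya2, Eya3, Eya4, Itgam, Ptprc, C1qa, C1qb and Rn45s are given outside the naming rule and were chosen after their values were seen. Some genes that the naming rule would give are not reported here.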

Additional observations from a re-analysis of the deposited data

How the results depend on the processing

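No member was called in any comparison with other pseudocounts, no filter, TMM, edgeR, DESeq2, the replicate block or fits of 1 organ or genotype, and over all alternatives the calls of members changed only for Myb without WT SP replicate 3. The number of genes called moved. In SP it was 12, against 1 with a pseudocount of 0.25, 5 without a filter, 3 with TMM, 2 with the replicate block, 2 with the SP libraries alone, 4 in edgeR and 457 in DESeq2. In BM it was 8, against 5 with the replicate block, 3 with the BM libraries alone and 37 in DESeq2. Over both organs it was 17, against 55 with the replicate block (replicate number), 48 with 12 separate libraries and 422 in DESeq2. DESeq2 called 111 genes between organs in WT, 2 in Δβ and 3 for the difference of the genotype effect. The cause of these shifts was not tested. The replicate block left the organ comparisons at 0 calls and changed no call of a member. Some uncalled differences near 0 changed sign: Meis1 in BM with TMM (0.00030), between organs in WT Hoxa7 (-0.014 in edgeR, -0.0034 in DESeq2) and Pbx3 (-0.12 and -0.11), and Pbx3 in the difference between organs (0.072 and 0.063).

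With each library left out in turn, the number of genes called ran from 1 to 1884 in SP, from 1 to 13 in BM, from 2 to 27 over both organs (1 number of a genotype left out at a time) and from 0 to 598 between organs in WT, with the highest values in SP and WT organs without WT SP replicate 3. The number of members called ran from 0 to 1 in SP and between organs in WT. The lowest and highest log2 differences of the members whose sign changed were as follows, and none but that of Myb passed the threshold. In SP, the genotype difference ran from -0.065 to 0.78 for Hoxa5, from -0.042 to 0.34 for Hoxa7, from -0.033 to 0.84 for Hoxa9, from -0.51 to 1.06 for Hoxa10, from -0.40 to 1.05 for Pbx3, from -0.11 to 0.28 for Mef2c, from -0.015 to 0.99 for Myb and from -0.019 to 3.70 for Eya1. In BM it ran from -0.18 to 0.28 for Hoxa7, from -0.49 to 0.24 for Hoxa9, from -0.68 to 0.19 for Hoxa10, from -0.24 to 0.13 for Meis1, from -0.31 to 1.18 for Pbx3 and from -0.090 to 0.17 for Myb. Over both organs it ran from -0.53 to 0.36 for Hoxa5, from -0.067 to 0.28 for Hoxa7, from -0.15 to 0.50 for Hoxa9, from -0.29 to 0.53 for Hoxa10 and from -0.33 to 1.11 for Pbx3. The difference of SP from BM in WT ran from -0.17 to 0.29 for Hoxa7, from -1.48 to 0.097 for Hoxa10 and from -0.52 to 0.59 for Pbx3. In Δβ this difference ran from -0.47 to 0.61 for Hoxa5, from -0.097 to 0.35 for Hoxa7, from -0.30 to 0.43 for Hoxa9, from -0.63 to 0.27 for Hoxa10, from -0.12 to 0.22 for Meis1 and from -0.95 to 0.84 for Pbx3. The difference of the genotype effect between organs ran from -0.18 to 0.32 for Hoxa7, from -0.30 to 1.27 for Hoxa10, from -1.02 to 0.76 for Pbx3 and from -0.063 to 0.94 for Myb.

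With 3 libraries a group, the standard errors between 2 groups, 0.25 to 2.14 log2 units, leave differences of 1 unit undetected for most members. Standard errors ran from 0.19 to 1.73 over both organs and from 0.36 to 3.02 for the difference of the genotype effect between organs. Values under 3 reads carry no level. Leaving out libraries of 1 group leaves 2, whose spread the fit shares with the other groups.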
